A study of Mus musculus with 6 samples.

Results

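The genes described here make, carry and break down acetylcholine, or build the intermediate filaments of projection neurons. They were taken as the rows of 9 listed symbols in the count files, 4 cholinergic genes (Chat, Slc18a3, Slc5a7 and Ache) and 5 filament genes (Prph, Nefl, Nefm, Nefh and Ina). All 9 were found among 55433 genes, and all 9 were among the 17711 genes that passed the filter on low counts. The series measured RNA in whole spinal cords of C57BL/6J mouse embryos at E13.5, in 3 libraries labelled control (genotype NFIA-ff) and 3 labelled NFIAcKO (NFIA-ff and Nestin-cre); the stated aim was to study NFIA in motor neuron development. Both groups thus carried the NFIA-ff allele, and only the second carried the transgene, which expresses cre recombinase in neural progenitors and so reaches both neurons and glia. The deletion and the transgene cannot be told apart in this design.

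Motor neurons are the main cholinergic neurons of the embryonic cord, beside preganglionic neurons and a few interneurons. Choline acetyltransferase, the product of Chat, makes acetylcholine in the axon terminal, the vesicular transporter encoded by Slc18a3 loads it into vesicles, acetylcholinesterase (Ache) splits it after release, and the choline transporter encoded by Slc5a7 returns the choline. Neurofilaments are heteropolymers that fill and widen axons: Nefl, Nefm and Nefh encode the light, medium and heavy subunits, Ina encodes alpha-internexin, which is abundant in young neurons, and Prph encodes peripherin, which is typical of neurons whose axons leave the central nervous system, including motor neurons and sensory neurons of the dorsal root ganglia.

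The 6 libraries held 43393053 to 51465763 counts assigned to genes. Nfia, the targeted gene, was counted at 60.1, 59.1 and 79.2 CPM (counts scaled to library size, with TMM factors) in control replicates 1 to 3 and at 106, 108 and 119 CPM in NFIAcKO replicates 1 to 3. It was thus higher in every library labelled NFIAcKO (log2 fold change 0.75, SE 0.11, edgeR adjusted p = 0.0031). The count covers all exons of the gene, also those that a deletion would leave in place, so the recombination itself is not tested by it. The direction of this count is opposite to the loss that the label names, and every direction below is that of the labels. Fold changes (libraries labelled NFIAcKO over control) also rose with exonic length. Their median was -0.23 on the log2 scale for the eighth of genes with the shortest exons and 0.21 for the longest eighth. Whether this trend depends on gene function was not tested. Each fold change of the 9 genes is therefore given as counted and, where this matters, with a trend with exonic length and GC content removed. For Nfia, with 10891 bp of exon, the log2 fold change with this trend removed was 0.62 (edgeR adjusted p = 0.011). Genes listed as motor neuron factors were counted in every library. Isl1, Isl2, Mnx1, Lhx3 and Lhx4 summed to 117 to 147 CPM in control libraries and 144 to 160 in those labelled NFIAcKO. The part of other cell types in these counts was not tested. The labels do not say whether the embryos of a group shared a litter, so the p-values measure the spread between these libraries.

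The alpha-internexin and peripherin genes had fold changes of opposite sign, with groups that did not overlap in either, and the 250 bases before their start sites are shown for that reason. The Prph difference did not pass (edgeR adjusted p = 0.22), and was -0.07 on the log2 scale with the trend removed. Groups did not overlap for 33.4% of all tested genes. Both windows come from RefSeq on GRCm38.p6, on the plus strand, at chr19:47014431-47014680 for Ina and chr15:99054924-99055173 for Prph. Capitals mark the half-site TTGGC of NFI factors (searched on both strands, so also as GCCAA) in Ina and the TATA box letters TATAAA (searched on the gene's strand) in Prph.
Ina: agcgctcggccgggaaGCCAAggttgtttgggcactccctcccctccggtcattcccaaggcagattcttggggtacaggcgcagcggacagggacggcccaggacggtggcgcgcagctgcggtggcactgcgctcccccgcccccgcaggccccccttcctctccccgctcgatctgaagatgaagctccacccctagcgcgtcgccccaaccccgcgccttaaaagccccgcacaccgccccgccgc
Prph: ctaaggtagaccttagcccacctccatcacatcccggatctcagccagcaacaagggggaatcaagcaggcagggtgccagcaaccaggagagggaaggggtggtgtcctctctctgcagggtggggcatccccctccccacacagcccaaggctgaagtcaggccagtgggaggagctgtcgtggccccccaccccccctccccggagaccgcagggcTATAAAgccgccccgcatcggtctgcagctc
The Ina window is 70.8% G and C and that of Prph 65.2%. The half-site in Ina begins 234 bases before the start, and the TATA letters in Prph begin 31 bases before it. Of the 9 genes, 6 had a RefSeq window, and 3 of these (Ina, Slc18a3 and Slc5a7) held the half-site, which 41.5% of all 32851 windows of this length hold. The full palindrome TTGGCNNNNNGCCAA was in none of the 6 windows and in 0.0365% of all windows. The letters TATAAA were in 2 of the 6 windows (Prph and Slc5a7) and in 7.59% of all windows. In Slc5a7 they begin 187 bases before the start. These are matches of letters only, and the series measured no binding.

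Per kilobase of exon the 9 genes spanned a wide range in the E13.5 cord. Ina was the most abundant at 421 ± 65.1 CPM per kb in the control libraries (SD, n = 3) and 565 ± 25.8 in those labelled NFIAcKO. Nefl followed at 262 ± 11.6 and 281 ± 2.44, and Nefm at 222 ± 45.9 and 292 ± 8.03 CPM per kb. The order of Nefl and Nefm differed between the groups. Nefl was at 266, 249 and 271 CPM per kb in control replicates 1 to 3, above Nefm at 225, 175 and 267. In NFIAcKO replicates 1 to 3 Nefl was at 282, 278 and 282, below Nefm at 301, 287 and 287. Prph stood at 62.4 ± 4.6 and 56.2 ± 1.08 CPM per kb, above all values of the remaining 5 genes.

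Nefh, the heavy subunit, which is known to accumulate late as axons mature, was the least abundant filament gene at 8.53 ± 1.58 and 10.8 ± 0.745 CPM per kb. Its level lay 43.1 to 59.3 times below that of Ina in each library. Among the cholinergic genes Slc18a3 led with 14.0 ± 2.19 and 15.6 ± 0.655 CPM per kb. Ache stood at 7.52 ± 0.636 and 8.98 ± 0.495 CPM per kb, and Slc5a7 at 6.44 ± 0.290 and 6.98 ± 0.895. Their ranges over the 6 libraries overlapped, as did those of Ache and Nefh. Within each library, however, Ache lay above Slc5a7 and Nefh above Ache. Chat was lowest at 1.05 ± 0.0679 and 1.22 ± 0.174 CPM per kb.

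**Figure D1:**
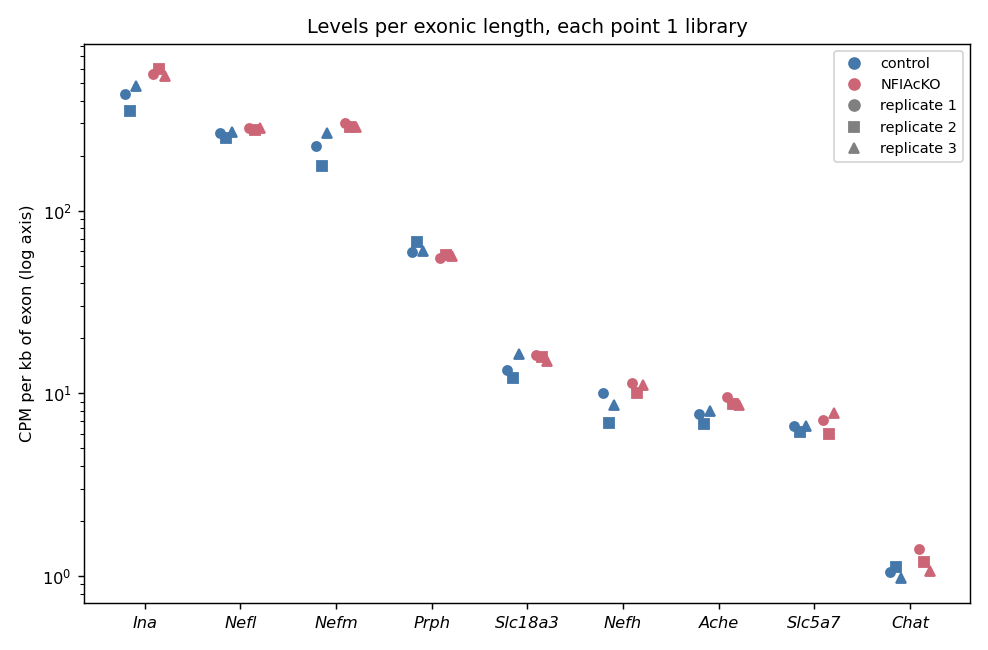
Level of each gene per kilobase of annotated exon (log axis, CPM per kb, genes ordered by mean), with 1 point for each of the 3 control and 3 NFIAcKO libraries. Ina, Nefl and Nefm lie above 175 CPM per kb in every library, and Chat stays between 0.979 and 1.41.

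Of the filament genes, 2 of 5 rose in the libraries labelled NFIAcKO (Ina and Nefm), and of the cholinergic genes 0 of 4 passed the test at an edgeR adjusted p under 0.05. Of all tested genes 13.9% passed: 7.86% of all tested genes as higher (1392) and 6.08% as lower (1076), a balance that turned with upper quartile scaling (1057 and 1434). Of the 9 genes, 2 are too few to read against these shares. By unadjusted p under 0.05, edgeR counted 4 of the 9 (Ache, Nefm, Nefh and Ina), where 29.8% of all tested genes were counted so. Of the 9 genes, 8 had a fold change above 0, and their median was 0.22 on the log2 scale, against -0.01 over all tested genes. The groups did not overlap for 5 genes, with Ache, Nefl, Nefm and Ina above and Prph below the controls, where 33.4% of all tested genes had groups that did not overlap (17.3% above and 16.1% below).

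Ina rose the most of the 9 genes. Its levels in CPM were 1402, 1136 and 1553 in control replicates 1 to 3, against 1805, 1922 and 1761 in NFIAcKO replicates 1 to 3. All 3 libraries labelled NFIAcKO lay above all controls, and control replicate 2 was the lowest. The change was 1.34-fold (log2 fold change 0.42, SE 0.11, adjusted p = 0.021). With the length and GC trend removed it was 0.44 (adjusted p = 0.021), the one rise among the 9 genes in that fit, in which 3.82% of all tested genes rose. The call was lost without control replicate 1 (adjusted p = 0.0718) and without NFIAcKO replicates 1, 2 and 3 (0.0817, 0.0833 and 0.0674), at log2 fold changes of 0.44, 0.44, 0.39 and 0.44. Ina lies on chromosome 19 from 47014698 to 47025327, and 456 bp at its end, 14.1% of its exonic length, are also exon of Nt5c2 on the opposite strand, so part of its count is uncertain.

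Nefm, whose product assembles with the light subunit, stood at 1299, 1012 and 1542 CPM in control replicates 1 to 3 and at 1740, 1660 and 1658 CPM in NFIAcKO replicates 1 to 3. The controls were widely spread, with replicate 2 lowest, while the libraries labelled NFIAcKO sat close together above them. The difference of 1.31-fold (0.39, SE 0.12) passed at the edge of the threshold, with an adjusted p = 0.0495. It missed the threshold once the trend was removed (0.26, adjusted p = 0.0909), and its size fell to 0.24 without control replicate 2 (adjusted p = 0.124). It was called in 1 fit, that without control replicate 3, when each library was left out in turn.

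Nefl differed less. Its levels were 900, 841 and 915 CPM in control replicates 1 to 3 and 953, 939 and 953 CPM in NFIAcKO replicates 1 to 3. The groups did not overlap, but the difference of 1.07-fold did not pass (log2 fold change 0.10, 95% interval -0.08 to 0.27, adjusted p = 0.46). Nefl (chromosome 14, 68083863 to 68089095, plus strand) lies within the annotated span of Nefm on the opposite strand (68082590 to 68124846). Their annotated exons share 1108 bp, 32.8% of the exonic length of Nefl and 19.2% of that of Nefm, so the split of reads between them depends on a strand setting that is not given in the sources used here.

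Nefh was counted at 40.1, 27.5 and 34.6 CPM in control replicates 1 to 3 and at 45.7, 40.0 and 44.3 CPM in NFIAcKO replicates 1 to 3. The groups met at control replicate 1, which lay just above NFIAcKO replicate 2. The difference of 1.27-fold missed the threshold (0.35, SE 0.12, adjusted p = 0.0656), and passed it in the fit with the replicate number as a block (0.36, adjusted p = 0.023). Leaving out control replicate 2, the lowest, brought it to 0.21 (adjusted p = 0.25). Nefh (chromosome 11, 4938754 to 4948064, minus strand) overlaps no other annotated gene.

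Prph was the only one of the 9 genes with a negative fold change. Its levels were 119, 135 and 119 CPM in control replicates 1 to 3 and 110, 114 and 113 CPM in NFIAcKO replicates 1 to 3. The groups did not overlap, with control replicate 2 highest. The difference did not pass (log2 fold change -0.15, 95% interval -0.32 to 0.02, adjusted p = 0.22). It was -0.10 without control replicate 2 and -0.07 with the length and GC trend removed. Prph has the shortest exons of the 9 genes (1999 bp), in an eighth of the genes by length whose median log2 fold change was -0.17. It lies on chromosome 15 from 99055174 to 99058978 and overlaps no other annotated gene.

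Sensory neurons of the dorsal root ganglia also express Prph and can stay attached to a dissected cord. Of 12 listed markers of these neurons 10 were tested, and 0 passed in edgeR, with 1, P2rx3 (-1.23, adjusted p = 0.14), at an unadjusted p under 0.05. Their median log2 fold change was -0.90, with 8 of the 10 below 0 and 2 above. The summed level ranged from 14.4 to 44.1 CPM in the control libraries and from 16.3 to 24.3 CPM in those labelled NFIAcKO. Within it Prdm12 had the highest mean, at 7.89 ± 3.58 and 7.85 ± 1.04 CPM (SD, n = 3). Whether cells of the cord itself added to this sum was not tested. Scn10a, a sodium channel of pain-sensing neurons, had 4, 97 and 64 counts in control replicates 1 to 3. In NFIAcKO replicates 1 to 3 it had 39, 0 and 2 counts, so the groups overlapped. Mrgprd had at most 1 count in a library. Control replicate 2, with the highest Prph, was second highest in the summed markers, while control replicate 3, the highest in those, had a Prph level close to that of control replicate 1, the lowest in those. Their part in the Prph values was not tested.

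**Figure D2:**
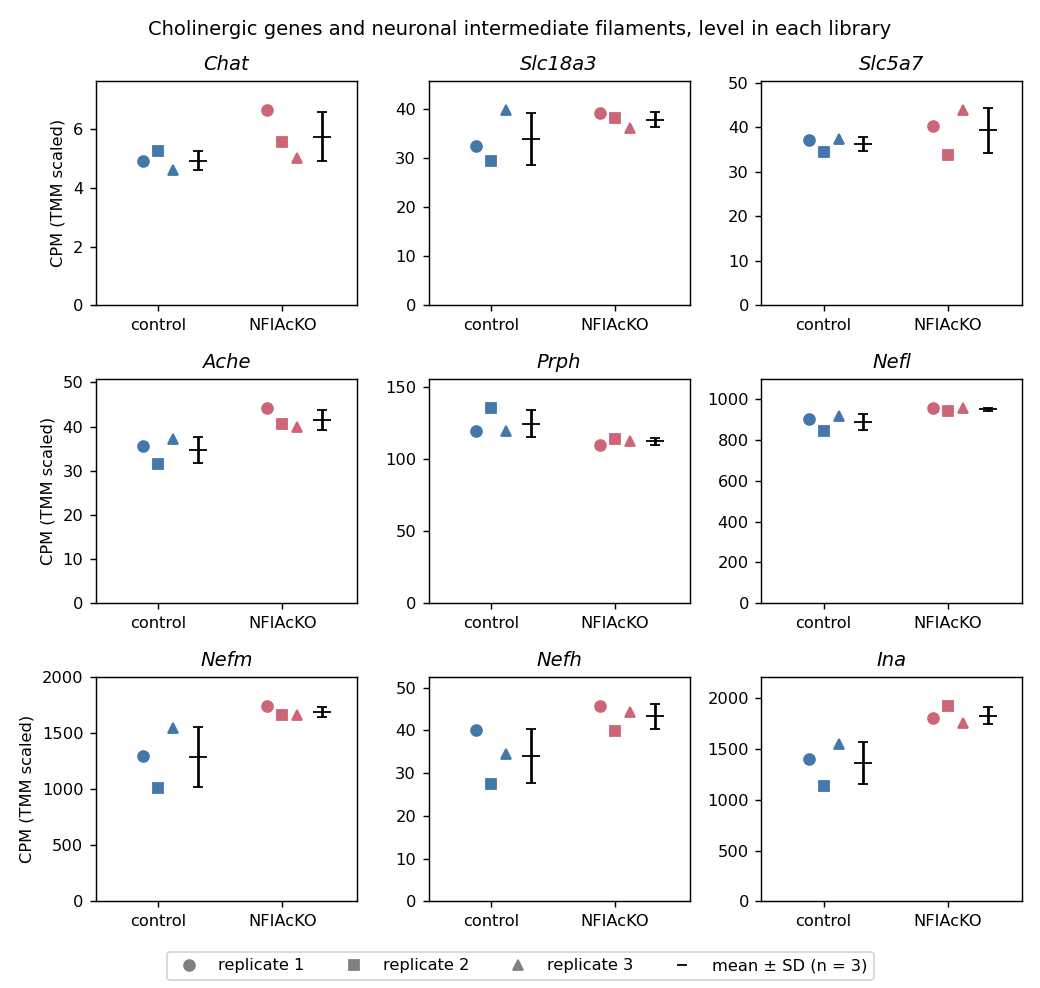
Level of each of the 9 genes (vertical axis from 0, CPM on TMM-scaled library sizes) in the 3 control and 3 NFIAcKO libraries, with a symbol for each replicate number and black bars for mean ± SD (n = 3). The groups are apart for Ache, Prph, Nefl, Nefm and Ina, and overlap for Chat, Slc18a3, Slc5a7 and Nefh.

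Among the cholinergic genes, the acetylcholine-splitting enzyme came closest to the threshold. Ache was at 35.7, 31.5 and 37.1 CPM in control replicates 1 to 3 and at 44.2, 40.5 and 39.9 CPM in NFIAcKO replicates 1 to 3. Every library labelled NFIAcKO lay above every control. The difference of 1.20-fold missed the threshold (0.26, SE 0.09, adjusted p = 0.0726) and was 0.16 with the trend removed (adjusted p = 0.18). It passed in DESeq2's Wald test (0.26, adjusted p = 0.0451) and without control replicate 3 (0.30, adjusted p = 0.0156). Ache lies on chromosome 5 from 137287519 to 137294466, and 98 bp of its exons are shared with Gm42456 on the opposite strand.

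Slc18a3, the vesicular transporter, stood at 32.3, 29.4 and 39.6 CPM in control replicates 1 to 3 and at 39.2, 38.1 and 36.0 CPM in NFIAcKO replicates 1 to 3. Control replicate 3 was the highest of all 6 libraries, so the groups overlapped. The difference did not pass (0.16, 95% interval -0.07 to 0.39, adjusted p = 0.34). Without control replicate 3 it was 0.29 and passed (adjusted p = 0.0197).

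Slc5a7, which takes choline back into the terminal, was at 37.2, 34.4 and 37.3 CPM in control replicates 1 to 3 and at 40.4, 33.9 and 43.9 CPM in NFIAcKO replicates 1 to 3. The lowest and the highest value both came from libraries labelled NFIAcKO. The difference did not pass (0.12, 95% interval -0.10 to 0.33, adjusted p = 0.47). It was 0.22 without NFIAcKO replicate 2 and 0.02 without NFIAcKO replicate 3. Slc5a7 (chromosome 17, 54273590 to 54299034, minus strand) overlaps no other annotated gene.

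Chat, the synthetic enzyme and the standard marker of these neurons, had the fewest counts of the 9 genes, with 216, 276 and 214 in the controls by replicate number and 321, 258 and 237 in the libraries labelled NFIAcKO. In CPM these were 4.92, 5.24 and 4.6 against 6.63, 5.57 and 5.02. NFIAcKO replicate 3 lay below control replicate 2, so the groups overlapped. The 95% interval of its log2 fold change, -0.10 to 0.55, was the widest of the cholinergic genes (0.22, SE 0.15, adjusted p = 0.36). Leaving out NFIAcKO replicate 1, the highest, brought it to 0.11 (adjusted p = 0.76). In a whole cord, fewer cells of a type and less RNA per cell cannot be told apart for any of these genes.

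Chat and Slc18a3 form a single locus: Slc18a3 (chromosome 14, 32462438 to 32464850) lies within the span of Chat (32408203 to 32465989) on the same minus strand, and their annotated exons share no base. Per kilobase of exon, Slc18a3 exceeded Chat by 10.9 to 16.8 times in the 6 libraries. The log2 ratio of Slc18a3 to Chat in CPM was 2.77 ± 0.31 in the control libraries and 2.73 ± 0.15 in those labelled NFIAcKO (SD, n = 3), a difference of -0.04 that was smaller than the spread within the groups. That of Slc5a7 to Chat was 2.88 ± 0.15 and 2.78 ± 0.30. The sum of Chat, Slc18a3 and Slc5a7 relative to the motor neuron factors Isl1, Isl2 and Mnx1 was -0.14 ± 0.12 and -0.18 ± 0.10 on the log2 scale, with groups that overlapped (exact two-sided permutation p = 0.60, and 0.82 adjusted over the 7 ratios compared). The motor neuron factors themselves had 1 of 5 members called, Lhx4, where 13.9% of all tested genes were called. This factor rose by 0.40 on the log2 scale (adjusted p = 0.0311) but missed the threshold after removal of the trend (adjusted p = 0.0557). Lhx4 was also not called whenever a library other than control replicate 3 was left out (adjusted p = 0.0674 to 0.15). By unadjusted p under 0.05 Mnx1 (0.35, adjusted p = 0.0703) and Lhx3 (0.32, adjusted p = 0.0715) stood next, and Mnx1 was called after removal of the trend (0.42, adjusted p = 0.0405).

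The other filament genes were also set against Nefl within each library. The ratio of Nefm to Nefl in CPM was 1.44, 1.20 and 1.69 in the 3 controls by replicate number and 1.83, 1.77 and 1.74 in the 3 libraries labelled NFIAcKO. That of Ina to Nefl was 1.56, 1.35 and 1.70 against 1.89, 2.05 and 1.85. That of Prph to Nefl was 0.133, 0.161 and 0.131 against 0.115, 0.122 and 0.118. In each of these 3 ratios the groups did not overlap, with differences of 0.31, 0.33 and -0.25 on the log2 scale. Each had an exact two-sided permutation p = 0.10, the smallest that 3 against 3 libraries can give, and 0.23 adjusted over the 7 ratios. The ratio of Nefh to Nefl was 0.0446, 0.0327 and 0.0378 against 0.0479, 0.0426 and 0.0464, with groups that overlapped (a difference of 0.26, exact two-sided permutation p = 0.20, and 0.35 adjusted). With 3 against 3 libraries this test cannot reach 0.05, so these 4 ratios are given as values with their spread.

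Removal of the length and GC trend changed the ratios unequally: the difference for Nefm was then 0.11 and that for Nefh 0.14, while those for Ina and Prph were 0.29 and -0.23. Without control replicate 2, the differences were 0.19 for Nefm, 0.15 for Nefh, 0.25 for Ina and -0.15 for Prph. As a share of the summed per-kilobase level of the 5 filament genes, Ina took 43.0 ± 1.5% in the control libraries and 46.9 ± 1.33% in those labelled NFIAcKO, Nefl 27.0 ± 2.18% and 23.3 ± 0.620%, Nefm 22.6 ± 1.98% and 24.2 ± 0.759%, and Prph 6.49 ± 1.3% and 4.67 ± 0.108% (SD, n = 3). Nefh took 0.873 ± 0.12% and 0.901 ± 0.0735%.

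**Figure D3:**
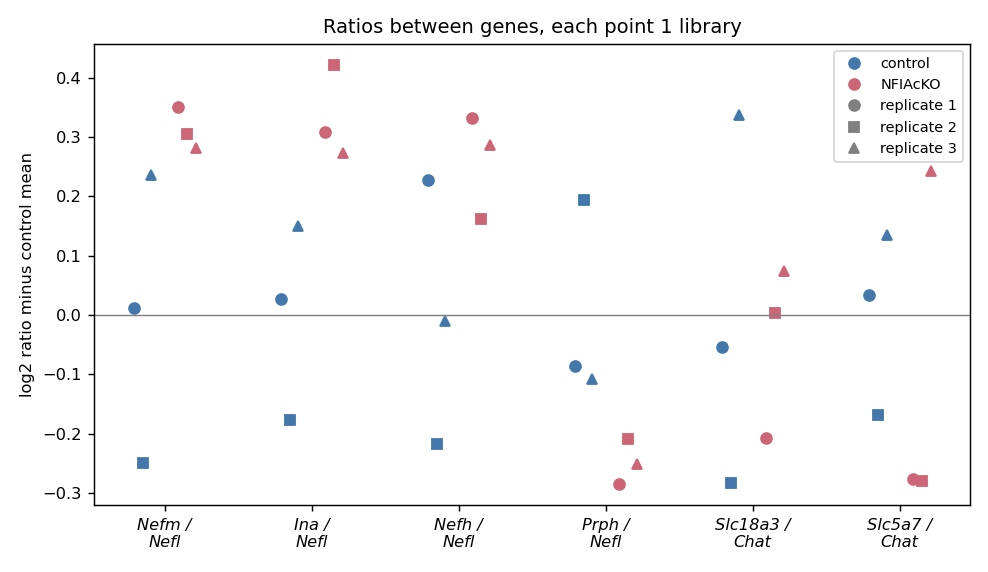
Ratio between genes in each library (vertical axis, log2 ratio of CPM minus the mean of the 3 control libraries), with a symbol for each replicate number. The groups are apart for Nefm, Ina and Prph relative to Nefl, with differences of 0.31, 0.33 and -0.25, and overlap for the other 3 ratios.

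The filament genes were also set against 14 genes common to neurons, of which 6 rose (Map1b, Rbfox3, Elavl3, Syt1, Dcx and Ncam1, by 0.32 to 0.83 on the log2 scale) and 1 fell (Uchl1, -0.34), beside 7.86% and 6.08% of all tested genes. After removal of the trend 5 of the 14 rose and 0 fell: Elavl4 was gained (0.33, adjusted p = 0.024), and Syt1, Ncam1 and Uchl1 missed the threshold (adjusted p = 0.0619, 0.0805 and 0.158). The share of the 5 filament genes in the summed level of those 14, a comparison chosen after the values were seen, was 27.2, 23.9 and 29.9% in control replicates 1 to 3, against 29.1, 28.7 and 27.6% in NFIAcKO replicates 1 to 3, so these groups overlapped. The sum of the 14 was 13191 to 13940 CPM in the control libraries and 16008 to 16434 CPM in those labelled NFIAcKO. Relative to it the 4 cholinergic genes made up 0.762 to 0.851% in the control libraries and 0.725 to 0.814% in those labelled NFIAcKO, and Prph 0.857 to 1.03% and 0.686 to 0.702%. Ina made up 10.2, 8.62 and 11.1% in control replicates 1 to 3, against 11.3, 11.8 and 10.7% in NFIAcKO replicates 1 to 3. The groups overlapped for Ina and for the cholinergic genes and were apart for Prph, whose exons (1999 bp) are the shortest of the 9 genes. None of these shares was tested, and the length and GC trend was not removed from them.

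Genes that anchor filaments to other parts of the cytoskeleton, or carry them or turn them over, formed a list of 8, of which 5 rose and 3 did not pass, with a median of 0.44 (0.14 after removal of the trend); over all tested genes 7.86% rose. Dst, a giant linker of filaments and microtubules, rose from 108 ± 10.1 to 186 ± 29.9 CPM (SD, n = 3), by 0.78 on the log2 scale (SE 0.11, adjusted p = 0.0031). The linkers Plec (0.55, adjusted p = 0.0044) and Macf1 (0.58, adjusted p = 0.0075) rose. Kif5a, a kinesin that carries neurofilaments along axons, rose from 340 ± 49.6 to 469 ± 14.0 CPM (0.46, adjusted p = 0.011). It was not called when control replicate 1, NFIAcKO replicate 1 or NFIAcKO replicate 3 was left out (adjusted p = 0.055, 0.0568 and 0.0619). Macf1 was not called without control replicate 1 or without control replicate 2 (adjusted p = 0.0514 and 0.0733). Dst was called whichever library was left out. In the fit without the length and GC trend, Dst (0.26, adjusted p = 0.0355) and Kif5a (0.33, adjusted p = 0.0244) were still called, and Plec and Macf1 were not (adjusted p = 0.314 and 0.273). In that fit 3 of the 8 rose, the third being Cdk5r2, an activator of the filament kinase Cdk5. Cdk5 itself stood at 59.5 ± 6.13 and 49.1 ± 2.41 CPM (-0.28, adjusted p = 0.0534).

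Of 11 tested intermediate filament genes outside the neuronal set, 1 rose and 10 did not pass, where 7.86% of all tested genes rose. Nes, the filament of neural progenitors, rose from 426 ± 83.8 to 589 ± 61.9 CPM (0.47, adjusted p = 0.0289). It missed the threshold after removal of the trend (adjusted p = 0.0551), and whenever control replicate 1, control replicate 2 or any library labelled NFIAcKO was left out. Lmnb1, a lamin of the nuclear envelope, stood at 285 ± 40.0 and 339 ± 43.4 CPM (0.25, adjusted p = 0.14). Vim, another filament of progenitors and glia, stood at 821 ± 117 and 873 ± 77.3 CPM (adjusted p = 0.63), and the astrocyte filament gene Gfap had 2 to 7 counts per library.

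Receptors for acetylcholine had 14 genes tested, 2 of which rose, with a median of 0.25, where 7.86% of all tested genes rose. Chrna4, the nicotinic alpha4 subunit, rose from 124 ± 20.0 to 175 ± 15.4 CPM (SD, n = 3), by 0.49 on the log2 scale (SE 0.11, adjusted p = 0.0122), and was called with the trend removed (0.41, adjusted p = 0.019), but not without control replicate 1 (adjusted p = 0.0596) or NFIAcKO replicates 1 and 2 (0.0611 and 0.0583). Chrna3, a subunit of ganglionic receptors, rose from 48.1 ± 1.51 to 58.2 ± 4.80 CPM (0.28, adjusted p = 0.0418), and missed the threshold when the replicate number was a block (adjusted p = 0.0519) and in 5 of 6 fits with a library left out. Chrnb2, the usual partner of alpha4, stood at 120 ± 17.2 and 143 ± 6.43 CPM (0.25, adjusted p = 0.0937). The muscle subunit Chrnd had 0 counts in every library, and markers of skeletal muscle summed to at most 7.28 CPM.

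Of 14 tested genes of choline supply and of the partners of cholinesterase, 2 rose and 12 did not pass, with a median of -0.02. The share that rose over all tested genes was 7.86%. Slc10a4, an orphan transporter of cholinergic and monoaminergic vesicles, rose from 28.4 ± 4.14 to 37.7 ± 3.21 CPM (SD, n = 3), a rise of 0.41 on the log2 scale (SE 0.11, adjusted p = 0.0268). Its levels were 29.2, 23.9 and 32.0 CPM in control replicates 1 to 3 and 40.0, 39.0 and 34.0 CPM in NFIAcKO replicates 1 to 3, which did not overlap. The trend-removed value was 0.53 (adjusted p = 0.0219), and 5 of 6 fits with a library left out did not call it. Pcyt1b, an enzyme of phosphatidylcholine synthesis, rose from 87.6 ± 10.5 to 114 ± 4.09 CPM (0.37, adjusted p = 0.016), but was not called when control replicate 1, NFIAcKO replicate 1 or NFIAcKO replicate 3 was left out (adjusted p = 0.0813, 0.077 and 0.0904). Bche, the second cholinesterase, stood at 10.2 ± 0.808 and 7.90 ± 1.44 CPM (-0.36, adjusted p = 0.0995), and Tmem35a, a chaperone of nicotinic receptors, at 124 ± 22.2 and 101 ± 3.54 CPM (-0.29, adjusted p = 0.0915). Chka, a choline kinase, was at -0.16 as counted (adjusted p = 0.30) but fell after removal of the trend (-0.42, adjusted p = 0.0393), the one gene of these 14 to do so.

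Of 4 genes that mark preganglionic neurons or interneurons beside or within the cholinergic classes, 2 rose, where 7.86% of all tested genes did. Nos1, the nitric oxide synthase of preganglionic neurons and some interneurons, went up by 0.59 on the log2 scale from 15.8 ± 1.23 to 23.8 ± 3.76 CPM (SD, n = 3, adjusted p = 0.0096). It missed the threshold after removal of the trend (0.33, adjusted p = 0.0795) and when control replicate 1, NFIAcKO replicate 1 or NFIAcKO replicate 3 was left out (0.0521, 0.056 and 0.0659). Markers of Schwann and satellite cells, which line the roots and ganglia, had 2 of 7 tested members fall, beside 6.08% of all tested genes. Among the 2 was Fabp7, which radial glia of the cord also express (-0.57, adjusted p = 0.0075). After removal of the trend 0 of the 7 fell, with Fabp7 at -0.21 (adjusted p = 0.0715), and with the replicate block Fabp7 alone fell; it was not called without NFIAcKO replicate 1 (adjusted p = 0.0517). The list summed to 892 to 1208 CPM in the control libraries and 698 to 753 CPM in those labelled NFIAcKO, mostly Fabp7. The part of these cells in the filament and cholinergic values was not tested.

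**Figure D4:**
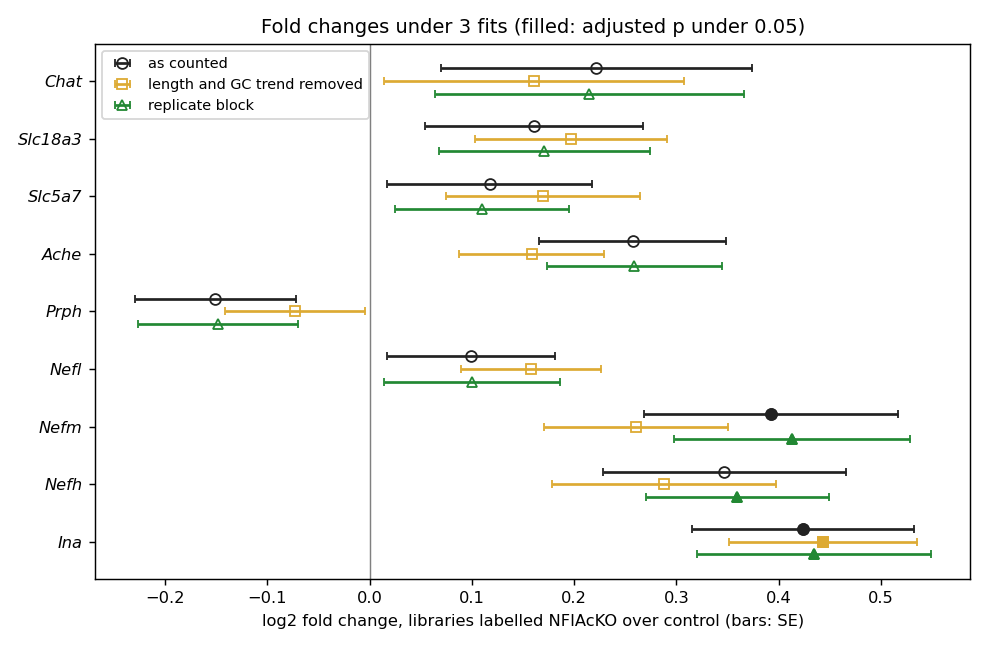
Log2 fold change of each gene, libraries labelled NFIAcKO over control (horizontal axis, bars are SE), as counted, without the length and GC trend, and with a block for replicate number; filled symbols passed an adjusted p of 0.05. Ina passed in all 3 fits at 0.42 to 0.44, Nefm in 2, Nefh with the block alone, and the 4 cholinergic genes, Nefl and Prph in none.

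The genes whose course over the 6 libraries was nearest to the mean of the 4 cholinergic genes were Sel1l3, Sugp2 and Pkd2, with root mean square differences of centred log2 CPM of 0.0135, 0.0139 and 0.0145. Nearest to the mean of the 5 filament genes were Zbtb34, Add3 and Diaph1, at 0.0162, 0.0196 and 0.0205. Within 0.05 lay 117 and 257 of 11332 genes compared, so the nearest ones are not set apart. All these profiles share the same 6 libraries and their depth.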

How the data were processed

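Per the labels' protocols, column-purified RNA was sequenced from stranded mRNA libraries. The authors deposited 1 file of raw counts by gene symbol for each library. HTSeq, STAR 2.6.1a, DESeq2 and the mm10 build appear in the submitters' processing notes without their roles. The strand setting was not given in the sources used here, nor was the annotation release, and counts of overlapping genes are uncertain. Each file's 5 summary lines (16.9 to 19.4% of its total) were left out.

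Groups were compared in edgeR 4.0.16 (R 4.3.3) by the robust quasi-likelihood test, with TMM scaling and filterByExpr, and p-values were adjusted by Benjamini-Hochberg over all 17711 tested genes. The SE comes from the log2 fold change and the F statistic, and intervals are 95%. Alternatives used DESeq2 1.42.0, limma 3.58.1, other scalings, no filter, blocks, left-out libraries, and offsets from natural splines (5 degrees of freedom) of exonic length and GC content in GENCODE M21 (GRCm38), from genes whose mean log2 CPM exceeded 1. Log2 CPM used a prior count of 2. Counts were also simulated for these 17711 genes, 3 against 3, with 200 genes changed and libraries drawn independently. There edgeR recovered 22.4% of changes of 1.3-fold, 61.2% of those of 1.5-fold and 74.2% of those of 2-fold. Unchanged genes made up 9.48% of calls. In the data 13.9% of all tested genes were called, so these percentages do not carry over directly.

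No 2 libraries of a group agreed within sampling noise (chi-square per degree of freedom 12.2 to 51.8). Libraries of the same replicate number deviated together (correlations 0.353, 0.397 and 0.193 for numbers 1, 2 and 3), which is the only source of the pairing. All members, members of the other lists that passed and up to 2 others with the smallest p were named, with the 3 nearest profiles among genes with a mean of at least 5 CPM. Scn10a, Mrgprd, Prdm12, Vim, Gfap and Chrnd were named outside this rule, after their values were seen. A few genes covered by the rule are not reported here. Members, lists and tests were chosen with earlier results of these data known.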

Additional observations from a re-analysis of the deposited data

How the results depend on the processing

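Of 135 values of the 9 genes under other settings, 115 kept their direction and their side of the threshold, 13 lost a call, 7 gained one and 0 reversed. Ina was called in all 9 settings that keep every library. When 1 library was left out in turn, log2 fold changes ranged from 0.30 to 0.52 for Ina (2 of 6 fits called), 0.24 to 0.54 for Nefm (1 of 6), 0.18 to 0.30 for Ache (1 of 6) and 0.061 to 0.29 for Slc18a3 (1 of 6), and Chat, Slc5a7, Prph, Nefl and Nefh were called in none. Nefm lost its call with DESeq2 size factors (0.39), upper quartile scaling (0.35), the trend removed (0.26), and the trend removed with the replicate block (0.27, a combination added after the data were seen). Ache gained a call in DESeq2 (0.26). Nefh gained one in DESeq2 (0.35), with no filter (0.35), with the replicate block (0.36), and with the block and the trend removed (0.30). The replicate block changed no other call of the 9 genes. As a block the number in the file names, whose meaning the labels do not give, changed none. Genes called higher and lower across the transcriptome numbered 1392 and 1076 as counted, 676 and 685 with the trend removed, 704 and 791 with the block and the trend removed, 1057 and 1434 with upper quartile scaling, and 282 to 2703 higher and 139 to 2466 lower with 1 library left out, the highest without control replicate 3. The causes of these shifts were not tested. Chat, with 214 to 321 counts per library, has the least depth of the 9 genes.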
